A study of Mus musculus with 3 samples.

Results

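Endothelial cells of the mouse bone marrow that carry Gpihbp1 were examined by droplet sequencing of single cells, in 3 libraries. They were chosen by measured values. A barcode had to hold at least 1000 UMIs (unique molecular identifiers, each counting 1 captured RNA molecule), at least 500 genes and under 10% mitochondrial UMIs. A cell was then kept with at least 1 Cdh5 UMI, at least 3 UMIs of Cdh5, Egfl7, Esam and Cldn5 together, no Ptprc UMI, at least 2 Gpihbp1 UMIs and no Stab2 UMI. This selection kept 1837 of the 16318 called cells, 211 in WT, 616 in BMT and 1010 in aGVHD. Levels of these 7 genes therefore describe the choice and are not results.

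All recipients were female CB6F1 mice, an F1 hybrid of BALB/c and C57BL/6. The WT group was left untreated. BMT (bone marrow transplantation) mice were exposed to 4.0 Gy 2 times and, 4 hours later, given marrow from B6.SJL donors, whose blood cells bear CD45.1. The aGVHD (acute graft-versus-host disease) mice had the same irradiation and marrow plus splenocytes from female C57BL/6 donors. In all 3 groups the sort had removed cells stained for CD45, lineage markers or CD71 and dead cells, and each group is 1 library. The sources used here give neither the number of mice behind a library nor the day of collection. No replicate spread exists, no test was run, and every interval below is a 95% interval for counting error alone, except that the interval of a list's median spans the values of its genes.

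GPIHBP1 sits on the surface of capillary endothelium, where it picks up lipoprotein lipase (encoded by Lpl) and carries it into the vessel lumen to release fatty acids from lipoproteins. CD36 then takes up fatty acids. In the marrow, arterioles and their capillaries open into sinusoids, wide leaky vessels whose endothelium carries Stab2 and Plvap, the protein of the diaphragms that span endothelial pores. Endothelial cells also answer interferon by raising MHC molecules, and so can become partners or targets of T cells.

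The cells had a median of 3474 UMIs in WT, 4610 in BMT and 3018 in aGVHD, and their summed UMIs came to 1036563, 3821788 and 4297393. WT thus gave the fewest molecules and the widest intervals. No barcode was shared between the libraries among these cells. Of all called cells they made up 2.96% in WT, 17.0% in BMT and 18.1% in aGVHD, shares that the sort and the loss of other cells can set. Among gated endothelial cells, those that passed the Cdh5, Egfl7, Esam, Cldn5 and Ptprc limits at any Gpihbp1 level, they were 40.5% (36.3 to 44.9) of 521 in WT, 77.1% (74.0 to 80.0) of 799 in BMT and 84.2% (82.0 to 86.2) of 1200 in aGVHD. The share in BMT was 1.90 times that in WT (1.70 to 2.13), and the share in aGVHD was 1.09 times that in BMT (1.04 to 1.14). Depth bears on these shares, since the gate counts UMIs. With every cell thinned to 1000 UMIs before the gate, the shares were 33.1%, 46.6% and 65.7%, and the same ratios were 1.41 and 1.41. Both steps stayed upward, with different sizes. Fewer cells of other endothelial kinds and more of these cells cannot be told apart in a share.

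**Figure D1:**
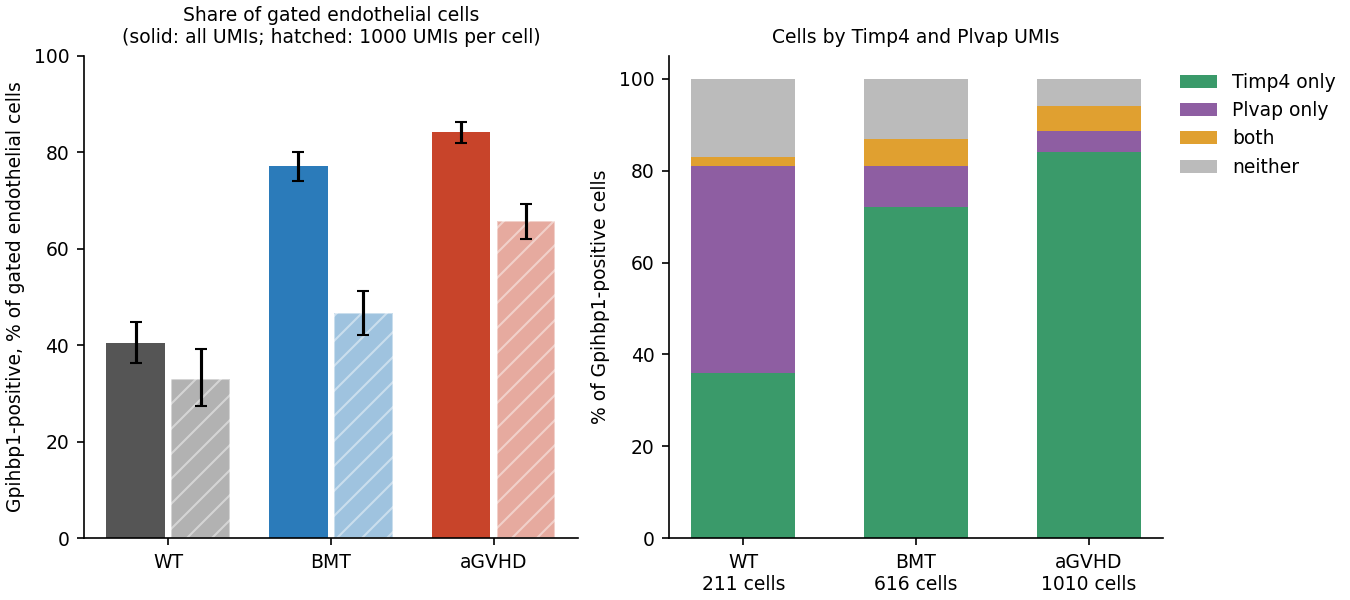
Left, Gpihbp1-positive cells as a percentage of gated endothelial cells in each library, with exact 95% intervals, from all UMIs (solid) and after thinning to 1000 UMIs per cell (hatched). Right, the same cells divided by their Timp4 and Plvap UMIs: Timp4-only cells make up 36.02% in WT, 72.1% in BMT and 84.2% in aGVHD.

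The cells next to the limit were few. With Stab2 at 0, 44 cells in WT, 43 in BMT and 102 in aGVHD had exactly 1 Gpihbp1 UMI and stayed outside, and 34, 51 and 63 had exactly 2 and stayed inside. A further 38, 62 and 11 cells held at least 2 Gpihbp1 UMIs but also Stab2, which is 15.3%, 9.14% and 1.08% of all cells with that much Gpihbp1. Timp4, which encodes an inhibitor of matrix metalloproteinases and was not used in the gate, measured 12.8 CPM in WT, 376 in BMT and 865 in aGVHD in the cells just outside, and 173 CPM in WT, 571 in BMT and 1193 in aGVHD in those just inside (CPM, the UMIs of a gene in the summed cells scaled to a common total). It measured 343 CPM in WT, 989 in BMT and 2227 in aGVHD at 3 or more Gpihbp1 UMIs. Timp4 thus stood higher with each step of Gpihbp1 in every library from 1 UMI upward.

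Beside gated endothelial cells without any Gpihbp1 UMI, the selected cells carried several genes of a lipid-handling capillary at a higher level. These ratios follow from the same contrast as the selection and are given as a description. Timp4 was 19.7, 7.75 and 6.97-fold higher in WT, BMT and aGVHD, Tcf15, a transcription factor of fat-handling capillaries, 5.30, 5.07 and 4.79-fold, Lpl 14.4, 6.15 and 2.43-fold, and Rgcc, a regulator of the cell cycle and of capillary growth, 6.35, 5.99 and 3.87-fold. Cd300lg, an endothelial adhesion receptor, was 2.78, 6.21 and 3.05-fold higher, and Rbp7, a retinol-binding protein of capillary endothelium, 4.01, 4.53 and 14.9-fold. The rule that ranked genes by their weakest library also named Slc28a2, a nucleoside transporter, Adh1, an alcohol dehydrogenase, Thrsp, a regulator of lipid synthesis, the potassium channel gene Kcna5, the exchange factor gene Mcf2l, and Cyp26b1, which breaks down retinoic acid. At the other end stood some vessel genes of veins and arterioles. The arterial list as a whole was not set apart. Its median log2 ratios were -0.30 (WT), -0.81 (BMT) and -0.37 (aGVHD), and each interval ran from a negative to a positive value. Selp, the P-selectin that slows leukocytes, was 32.4, 12.9 and 3.17-fold lower in the selected cells of the 3 libraries, Edn1, which encodes the vasoconstrictor endothelin, 6.49, 3.41 and 6.01-fold, and Mgp, a matrix protein of larger vessels, 4.36, 9.23 and 4.35-fold. The list of 25 capillary genes, of which 23, 24 and 23 could be compared, had a median log2 ratio of 0.76 in WT, 1.41 in BMT and 1.23 in aGVHD, while the venular list had -2.37, -1.65 and -1.18. The capillary interval was positive in every library, but the venular interval of aGVHD held both signs. The list of fatty acid and lipoprotein genes had 0.29, 0.90 and 1.15, and its WT and aGVHD intervals held both signs. Sinusoidal and lymphatic lists also had positive medians in WT, 0.62 and 0.79, with intervals of both signs. Their BMT medians were -1.06 and -0.95, and those of aGVHD -1.09 and -0.63.

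Within the selected cells, Timp4 and Plvap lay in nearly separate cells in WT and overlapped more in BMT and aGVHD. Cells with Timp4 and without Plvap are called Timp4 cells from here on, and those with Plvap and without Timp4 are called Plvap cells. In WT 76 cells (36.02%, 29.5 to 42.9) held Timp4 without Plvap and 95 (45.0%, 38.2 to 52.0) held Plvap without Timp4. In BMT these were 444 (72.1%, 68.4 to 75.6) and 55 cells (8.93%, 6.80 to 11.5), and in aGVHD 850 (84.2%, 81.8 to 86.4) and 44 cells (4.36%, 3.18 to 5.80). The WT library was thus split close to evenly, and the other libraries consisted mostly of Timp4 cells. Both genes were found together in 4, 36 and 57 cells, where independent detection at the same rates would have given 37.5, 70.9 and 90.7. Cells with neither gene numbered 36, 81 and 59. The number of Timp4 cells per Plvap cell was 0.8 in WT, 8.07 in BMT and 19.3 in aGVHD. After thinning to 1000 UMIs, Timp4 cells made up 27.5%, 53.4% and 77.0% and Plvap cells 30.8%, 6.98% and 3.66%. Plvap cells were the deeper ones, with median UMIs of 5446, 9175 and 9993 against 2151.5, 4427 and 2873 in Timp4 cells. The division was chosen after the values were seen, so it describes these cells and no gene used in it is a finding.

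Set against the capillary label, the Timp4 cells held several lipid-handling genes at a high level, and the Plvap cells held less of them. In Timp4 cells the capillary list, without Gpihbp1, Timp4 and Plvap, summed to 38699 CPM in WT, 35113 in BMT and 31445 in aGVHD. In Plvap cells it summed to 10745, 17795 and 15321 CPM. Not every member went this way. In WT, Kdr and Aplnr measured 827 and 218 CPM in Plvap cells against 607 and 85.0 CPM in Timp4 cells. Lpl measured 2792 CPM in WT, 1206 in BMT and 2353 in aGVHD in Timp4 cells, and 21.8 CPM in WT, 63.2 in BMT and 18.98 in aGVHD in Plvap cells. Aqp1, the water channel of continuous capillaries, measured 4872 CPM in WT, 3463 in BMT and 4487 in aGVHD in Timp4 cells, and 524 CPM in WT, 362 in BMT and 527 in aGVHD in Plvap cells. Tcf15 followed the same division, with 635 CPM in WT, 566 in BMT and 413 in aGVHD against 67.1 CPM in WT, 105 in BMT and 56.9 in aGVHD. Car4, a carbonic anhydrase on the capillary surface, had 166 CPM in the Timp4 cells of WT and 77.7 CPM in those of BMT and no UMI in the Plvap cells of either library (3 UMIs would be 4.68 and 4.99 CPM), but in aGVHD it had 163 CPM in Timp4 cells and 122 CPM in Plvap cells. Tspan7, a membrane protein, C1qtnf9, a secreted relative of adiponectin, Fmo1, an oxygenase, and Lims2, an adaptor of integrin adhesions, also ranked among the genes highest in Timp4 cells.

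Plvap cells carried another set. Lrg1, a secreted modulator of TGF-beta signalling made by venules and sinusoids, measured 259 CPM in WT, 229 in BMT and 852 in aGVHD in Plvap cells, and 12.1 CPM in WT, 3.31 in BMT and 14.8 in aGVHD in Timp4 cells. Fam167b had 373 CPM in WT, 269 in BMT and 232 in aGVHD in Plvap cells, while Timp4 cells had no UMI in WT (3 UMIs would be 12.1 CPM) and 2.48 and 4.31 CPM in BMT and aGVHD. Both genes were higher in Plvap cells of every library. The basement membrane genes Col18a1, with 281 CPM in WT, 288 in BMT and 177 in aGVHD against 32.4 CPM in WT, 11.2 in BMT and 15.99 in aGVHD, and Nid2, the transcription factor gene Snai1, and Maf, a transcription factor of sinusoidal endothelium, showed the same side. Among the cells left outside because they held Stab2, the sinusoidal marker, Plvap without Timp4 was found in 98.0%, 96.1% and 94.4%, and Timp4 without Plvap in none of 49, 76 and 18 cells, which allows shares of up to 6.12%, 3.95% and 16.7%. Among gated cells with no Gpihbp1 UMI, Plvap without Timp4 was found in 72.4%, 51.4% and 34.7%. Lymphatic markers reached 0.5% of a cell's UMIs in 14, 7 and 8 selected cells, of which 11, 4 and 6 held neither Timp4 nor Plvap.

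**Figure D2:**
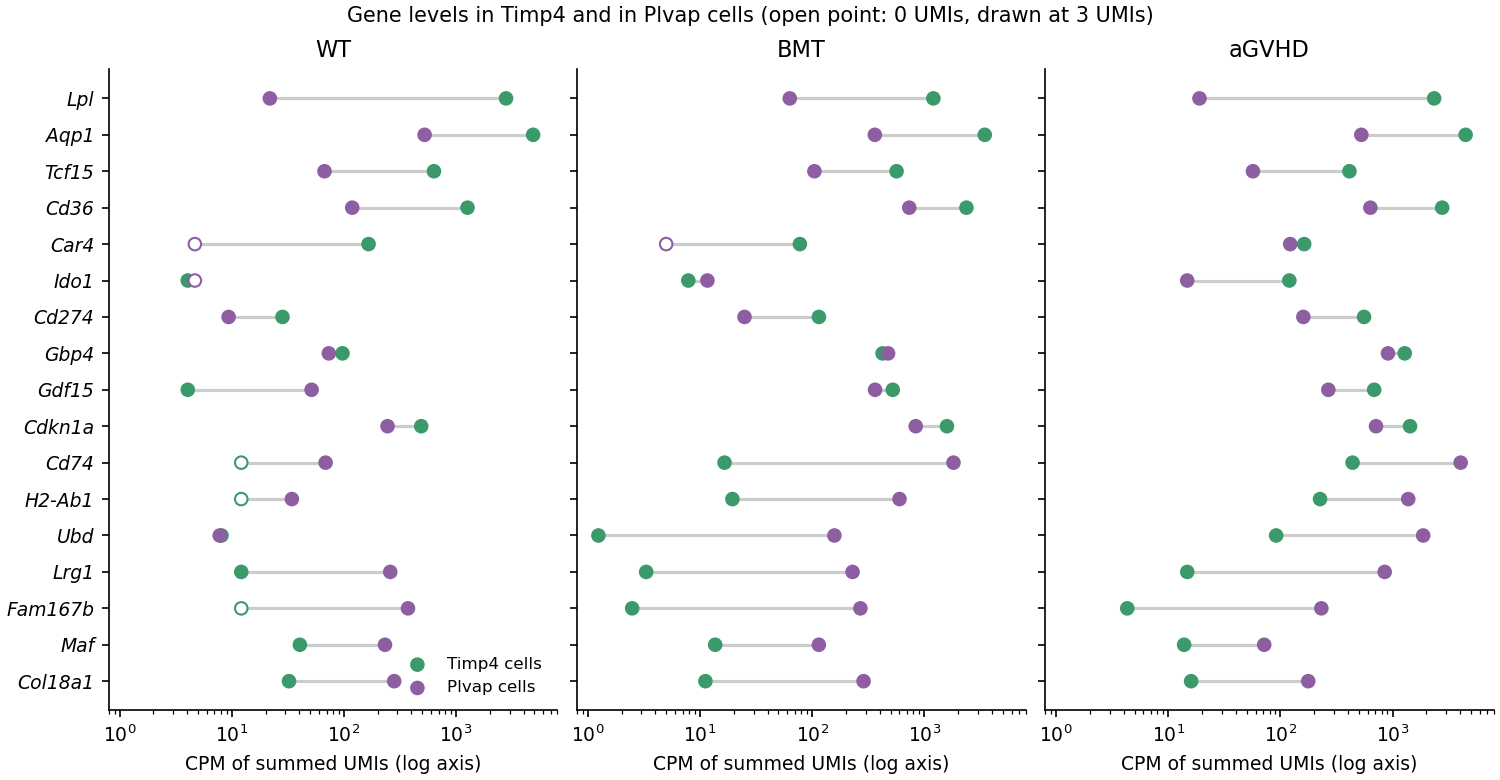
Levels of 17 genes (CPM, log axis) in Timp4 cells (green) and Plvap cells (purple) of each library, with open points for 0 UMIs drawn at 3 UMIs. Lpl, Aqp1 and Tcf15 are higher in Timp4 cells and Lrg1 and Fam167b in Plvap cells of all 3 libraries, whereas Gbp4 is close in both kinds.

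Some of the selected cells also held RNA of other cells. Markers of at least 1 other cell type made up 0.5% or more of the UMIs (Prg4 0.5% or 6 stromal genes 0.1%) in 37 cells of WT (17.5%), 49 of BMT (7.95%) and 122 of aGVHD (12.1%). In WT these were mainly lymphatic (14 cells), fibroblast (11) and erythroid (7) markers, and in aGVHD erythroid (63) and platelet (45) markers. Defining T and NK markers were nearly absent: 7 of 8 measured genes were at 0 in WT and in BMT and 5 of 8 in aGVHD. In the remaining cells, free RNA from the droplet fluid was estimated at 0.516%, 0.577% and 0.899% of UMIs. The estimate used haemoglobin and granule protein genes, and cells rich in such genes were among those left out. A low share was thus partly set by that choice. Over all selected cells the same estimate gave 23.9% in WT, 3.05% in BMT and 14.4% in aGVHD, with whole cells of other types counted in it. Counts of genes called in a list are therefore given also with these 37, 49 and 122 cells, called mixed cells from here on, left out.

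A difference between 2 libraries was called where a gene reached 50 UMIs in the pair, the ratio of its CPM was at least 2-fold and the interval left out a ratio of 1. The 7 genes of the gate were not tested. The first comparison, BMT with WT, asked how the cells differed after irradiation and marrow transfer. Of 8154 genes, 474 were called higher in BMT (5.81%) and 351 lower (4.30%), and the median log2 ratio was 0.02. In Timp4 cells alone, 326 of 6233 genes were called higher and 236 lower, of which 149 and 78 were among those called in all cells. In Plvap cells alone, 193 of 3927 genes were called higher and 115 lower. Without mixed cells, 404 of 7228 were called higher and 294 lower. Since the mix of Timp4 and Plvap cells differed so much between WT and BMT, the counts of each group of genes below are given for Timp4 cells as well.

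Interferon response genes were higher in BMT and none was lower. The interferon gamma list has 43 genes, of which 38 had enough UMIs, 29 were called higher and none lower, with a median log2 ratio of 1.75 (1.44 to 2.25). In Timp4 cells these were 23 of 35, with a median of 1.34, and in Plvap cells 24 of 29, with a median of 2.27. With mixed cells left out the list had 28 of 37 higher and none lower. Gbp4, a GTPase that attacks the vacuoles of intracellular microbes, measured 75.2 CPM in WT, 422 in BMT and 1209.6 in aGVHD, a difference of 5.61-fold (4.47 to 7.14) between BMT and WT and of 4.37-fold in Timp4 cells. The related GTPase genes Igtp, Iigp1 and Tgtp2 were higher by 4.73-fold (3.23 to 7.19), 6.07-fold (4.99 to 7.47) and 14.5-fold (7.32 to 33.9). Irf1, a transcription factor of the interferon response, measured 175 CPM in WT, 543 in BMT and 546 in aGVHD, so that WT was lowest, and was higher in BMT by 3.11-fold (2.67 to 3.64). Cd274, which encodes the T cell inhibitor PD-L1, was higher by 5.74-fold (3.54 to 9.97).

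The type I interferon list showed the same step. Of 34 tested genes 25 were called higher and none lower, with a median of 1.37 (1.07 to 1.71), and in Timp4 cells 16 of 31 were, with a median of 1.14. When mixed cells were left out the list had 21 of 33 higher and none lower, and 12 of 30 higher and none lower in Timp4 cells. Ifit1, which binds foreign RNA caps, measured 20.3 CPM in WT, 173 in BMT and 137 in aGVHD, a BMT to WT difference of 8.55-fold (5.55 to 13.9), and Ifit2 15.4 CPM in WT, 119.6 in BMT and 127 in aGVHD. Both were far lower in WT than in the other libraries. The chemokine gene Cxcl9, which draws T cells, was named by its size at 8.59-fold (6.32 to 11.97), but the empty droplets of BMT held 1395 CPM of it, above the 348 CPM of the cells. With free RNA subtracted from all cells at the share estimated without mixed cells, the ratio was 8.40-fold.

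MHC class I genes, whose products show peptides to CD8 T cells, were higher as well, in 15 of 23 tested genes and lower in none, with a median of 1.52 (0.92 to 1.72) and 1.20 in Timp4 cells. Timp4 cells had 13 of 23 higher and none lower, and leaving out mixed cells gave 14 of 23 higher and none lower. B2m, the common light chain, measured 1489 CPM in WT, 4257 in BMT and 6180.3 in aGVHD, and the heavy chain gene H2-K1 916 CPM in WT, 2983 in BMT and 4257 in aGVHD. H2-Q7 measured 37.6 CPM in WT, 424 in BMT and 828 in aGVHD, and H2-Q6 11.6 CPM in WT, 190 in BMT and 342 in aGVHD, with differences of 11.3-fold (8.22 to 15.9) and 16.4-fold (9.34 to 31.9) that were the largest in the list. These H2-Q genes are near copies of each other, so reads may have been divided between them. Tap1, the pump that loads peptides, was higher by 7.26-fold (4.75 to 11.7).

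MHC class II genes, whose products show peptides to CD4 T cells, were higher in 5 of 6 tested genes and lower in none, with and without mixed cells, and their level differed between the kinds of cell. In Plvap cells 5 of 5 were higher, and in Timp4 cells none reached 50 UMIs. Cd74, the chaperone of class II molecules, measured 45.3 CPM in WT, 313 in BMT and 938 in aGVHD. In Plvap cells it measured 68.7 CPM in WT, 1822 in BMT and 4055 in aGVHD, and in Timp4 cells no UMI was found in WT (3 UMIs would be 12.1 CPM), with 16.5 CPM in BMT and 440.4 CPM in aGVHD. In BMT the Plvap cells thus stood 110.1 times (80.4 to 155) above the Timp4 cells, and in aGVHD 9.21 times (8.59 to 9.87). H2-Ab1 and H2-Aa, the chains of the class II molecule itself, showed the same order, with H2-Ab1 at 602 CPM in Plvap cells and 19.4 CPM in Timp4 cells of BMT. In cells thinned to 1000 UMIs, Cd74 was found in 58.2% of Plvap cells and 1.58% of Timp4 cells of BMT, and in 86.4% and 20.4% in aGVHD (unthinned 83.6% and 4.95%, and 95.5% and 30.8%). In Pdgfra-positive stromal cells of the same libraries the thinned shares were 0.342%, 12.6% and 20.3% in WT, BMT and aGVHD (median UMIs 8234, 15124 and 8983). The share in Plvap cells stood above that of stromal cells in both, and the share in Timp4 cells stood under it in BMT and level with it in aGVHD. At the share estimated without mixed cells, free RNA would bring 1.66 CPM of Cd74 in BMT and 3.15 in aGVHD. Timp4 cells without mixed cells had 15.9 and 482 CPM. Macrophage and dendritic markers, the usual company of class II genes in blood cells, summed to 155 CPM in the Plvap cells of BMT and 105 CPM in those of aGVHD, with 4 and 6 of 11 genes at 0. In Timp4 cells they summed to 20.3 and 191 CPM, and to 15.9 and 58.1 CPM without mixed cells.

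Targets of p53, the factor that answers DNA damage, were higher in BMT. Of 29 tested genes 14 were called higher and 1 lower, with a median of 0.74 (0.23 to 1.83), and in Timp4 cells 11 of 25 were higher and none lower, with a median of 1.03. Leaving out mixed cells gave 14 of 29 higher and 1 lower. Cdkn1a, which encodes the cell cycle inhibitor p21, measured 318 CPM in WT, 1432 in BMT and 1346 in aGVHD, and was higher in BMT by 4.50-fold (4.02 to 5.04). Gdf15, a secreted stress hormone, measured 53.1 CPM in WT, 487 in BMT and 629 in aGVHD, a difference of 9.18-fold (7.02 to 12.2). The death receptor gene Eda2r measured 1.93 CPM in WT, 52.9 in BMT and 47.7 in aGVHD, where WT rested on 2 UMIs and the ratio was 27.4-fold (7.49 to 228). Bax, Phlda3 and Ccng1 were higher by 2.99-fold (2.59 to 3.48), 3.69-fold (2.97 to 4.64) and 6.49-fold (3.74 to 12.3). Sesn1 was the member called lower, at 2.02-fold (1.30 to 3.09). The 4 genes Cdkn1a, Gdf15, Bax and Eda2r were on the same level in both irradiated libraries to within 1.5-fold.

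Stress and immediate early genes were higher in 6 of 25 tested genes and lower in none, with a median of 0.50 (0.06 to 0.92). Timp4 cells had 6 of 24 higher and none lower, with a median of 0.56, and leaving out mixed cells gave 6 of 24 higher and 1 lower. Hspa1a, a heat shock chaperone, measured 547 CPM in WT, 2364 in BMT and 2358 in aGVHD, Atf3, a stress transcription factor, 356 CPM in WT, 1534 in BMT and 1333 in aGVHD, and Klf2, the factor that answers blood flow, 809 CPM in WT, 2302 in BMT and 2549 in aGVHD. WT was lowest for all 3 genes. Rnd1, a small GTPase that loosens the actin skeleton, was among the genes with the largest difference, at 8.04-fold (5.36 to 12.6).

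The capillary list was called higher in 6 and lower in 2 of 24 tested genes in BMT, with a median of 0.67 (0.27 to 0.89), but in Timp4 cells it was called higher in none and lower in 2 of 22, with a median of 0.10. In Plvap cells it had 7 of 20 higher and 1 lower, with a median of 0.52. The median thus lay above 0 over all cells and in Plvap cells and near 0 in Timp4 cells. Without mixed cells it had 3 of 24 higher and 2 lower, with a median of 0.53, and in Timp4 cells none of 21 higher and 1 lower, with a median of -0.02. Cd36 measured 510.3 CPM in WT, 1984 in BMT and 2435 in aGVHD over all cells, a BMT to WT difference of 3.89-fold (3.56 to 4.25) that came to 1.88-fold in Timp4 cells, where it was not called, while in Plvap cells it was called higher. Lpl measured 807 CPM in WT, 967 in BMT and 1954 in aGVHD, close in WT and BMT at 1.20-fold (1.11 to 1.29), while in Timp4 cells WT stood above BMT by 2.32-fold, with 2792 and 1206 CPM, and in Plvap cells it was called higher in BMT. Plvap itself measured 861 CPM in WT, 235 in BMT and 222 in aGVHD.

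Sinusoidal, venular and haemostasis genes were among those called lower in BMT. Of 9 tested sinusoidal genes 6 were called lower and none higher, with a median of -1.34 (-2.14 to -0.08), and in Timp4 cells none of 5 was called, with a median of -0.22, and in Plvap cells 1 of 8 was lower. The venular list had 6 of 12 lower and 1 higher over all cells, 2 of 8 lower and none higher in Timp4 cells, and 2 of 9 lower and none higher in Plvap cells. Among haemostasis genes 6 of 17 were lower and none higher, 3 of 11 lower and 1 higher in Timp4 cells, and 1 of 15 lower and 1 higher in Plvap cells. Without mixed cells, the sinusoidal list had none of 8 higher and 4 lower, the venular list none of 11 higher and 4 lower and the haemostasis list none of 16 higher and 5 lower. Tfpi, an inhibitor of coagulation, was lower by 4.37-fold (3.42 to 5.60), Slco2a1, a prostaglandin transporter, by 10.3-fold (7.27 to 14.7), Kcne3, a potassium channel subunit, by 12.9-fold (6.67 to 26.9), and Maf by 5.71-fold (4.67 to 7.02). Each of Slco2a1, Kcne3, Maf and Fam167b was higher in Plvap than in Timp4 cells. Pgf, which encodes the VEGF relative placental growth factor, measured 148 CPM in WT, 21.5 in BMT and 102 in aGVHD, so that BMT was lowest. Its WT level rested on few cells, with 124 UMIs in 12 of 95 Plvap cells and 15 UMIs in 3 of 76 Timp4 cells. Counting intervals do not cover such uneven spread over cells. Aplnr, the receptor of the vessel-growth peptide apelin, measured 167 CPM in WT, 47.9 in BMT and 6.75 in aGVHD and stepped down at each library over all cells. In WT it was higher in Plvap than in Timp4 cells, with 218 against 85.0 CPM. In Timp4 cells without mixed cells, WT stood above BMT by 1.68-fold (0.907 to 2.89), which was not called.

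Niche factors, which the marrow vessels offer to blood stem cells, had no common direction: 5 of 26 tested genes were higher and 2 lower. Timp4 cells had 1 of 19 higher and 6 lower, with a median of -0.29, so that most calls there were lower. Without mixed cells the counts were 2 of 20 higher and 3 lower over all cells and 2 of 14 higher and 1 lower in Timp4 cells. Kitl, the stem cell factor, measured 410 CPM in WT, 909.8 in BMT and 402 in aGVHD, higher in BMT by 2.22-fold (2.01 to 2.46), and by 1.28-fold in Timp4 cells, where it was not called. Gas6, a ligand of TAM receptors counted here among the markers of Lepr-positive stroma, was higher by 2.99-fold (2.64 to 3.41) and by 2.04-fold in Timp4 cells. Cxcl12, which holds stem cells in the marrow, measured 1609 CPM in WT, 1939 in BMT and 579.9 in aGVHD, but the empty droplets held 1832 CPM in WT, 3236 in BMT and 1225 in aGVHD. Its level in the cells stayed below that of the empty droplets in each library. In Timp4 cells it was lower in BMT by 2.17-fold, but this rested on mixed cells: without them the Timp4 cells of WT had 1351 CPM in place of 3573, level with the 1334 CPM of BMT.

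The rule that named the genes of largest difference mostly picked genes that are markers of other cells. Prg4, which encodes the joint lubricant lubricin, came first among higher genes, with 240.2 CPM in WT, 6635 in BMT and 1077 in aGVHD, but 99.6% of its UMIs in BMT lay in 31 cells, and without cells holding UMIs of other cell types it was lower in BMT by 2.08-fold. F13a1 and Mmp3, named as well, were not called without those cells. All 12 genes named as lower, the tendon, cartilage and fibroblast genes Fmod, Angptl7, Tnmd, Kera, Chad, Wif1, Comp, Thbs4, Mmp13, Apod and Sfrp2 and the haem synthesis gene Alas2, lost the call without those cells. Fmod, for example, measured 307 CPM in WT, 2.09 in BMT and 3.26 in aGVHD, against 558 CPM in WT, 200 in BMT and 35.1 in aGVHD in empty droplets. H2-Q6, H2-Q7, Eda2r, Tgtp2, Gdf15, Cxcl9, Ifit1, Tgtp1 and Rnd1 kept the call.

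**Figure D3:**
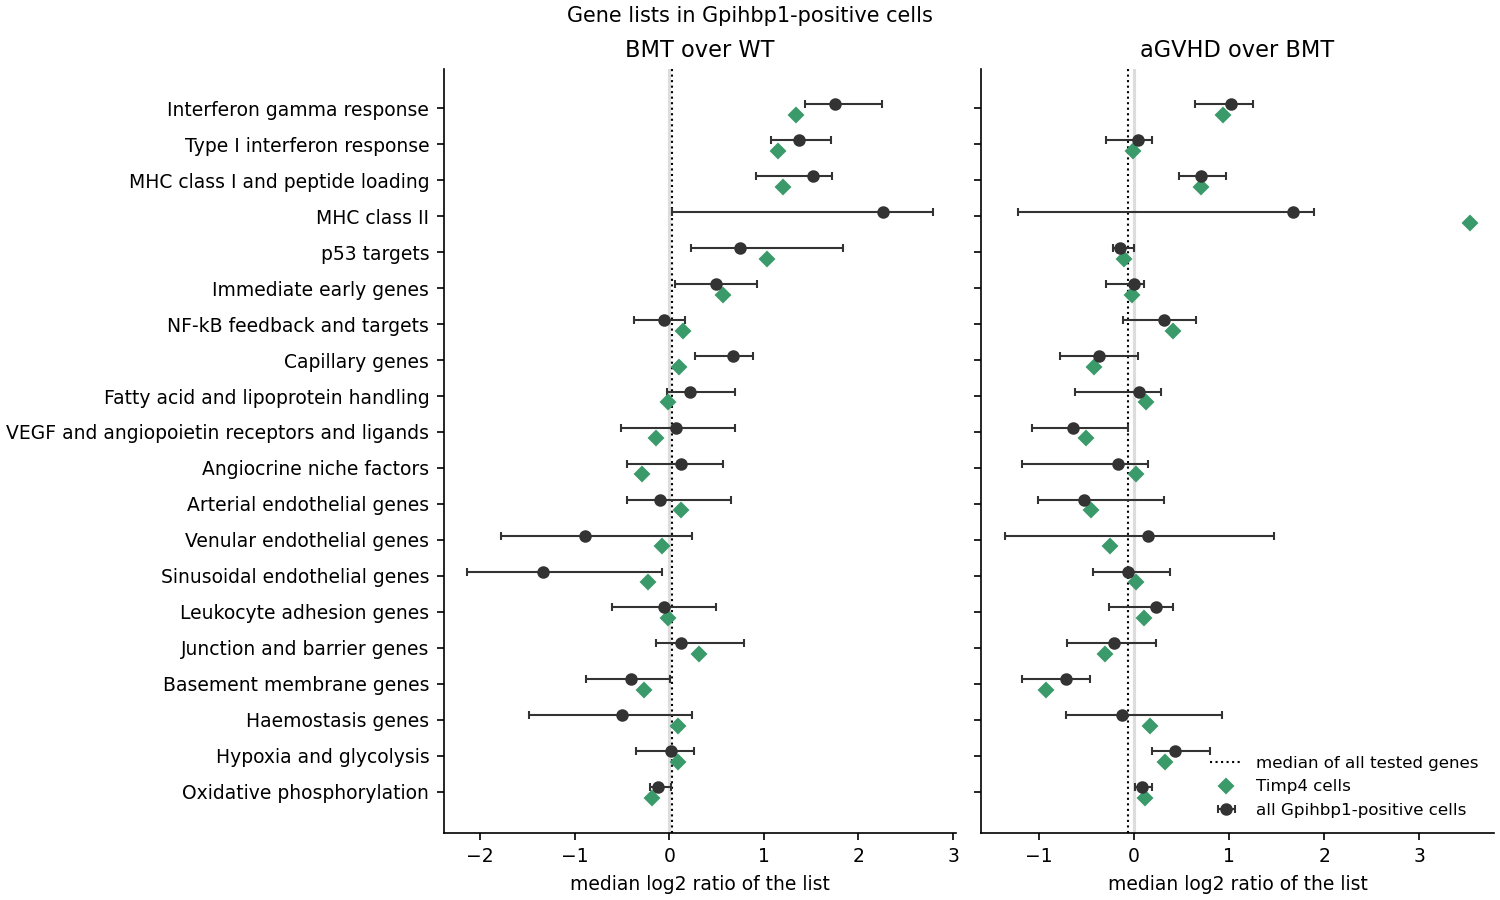
Median log2 ratio of 20 gene lists in BMT over WT (left) and aGVHD over BMT (right), for all Gpihbp1-positive cells (black, with the order-statistic interval over list members) and for Timp4 cells (green), with the median of all tested genes dotted. Interferon, MHC class I and p53 lists stay right of zero in BMT over WT in both, while the capillary, venular and sinusoidal lists lie near zero in Timp4 cells.

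The second comparison, aGVHD with BMT, asked what differed when splenocytes had been added to the same irradiation and marrow. It shares the BMT library with the first, so a high or low BMT value enters both. Of 9299 tested genes, 384 were called higher in aGVHD (4.13%) and 535 lower (5.75%), with a median log2 ratio of -0.07. Without cells holding UMIs of other cell types these were 263 and 271 of 8506, of which 202 and 248 were among those called in all cells. In Timp4 cells, which made up most cells of both libraries, 360 and 393 of 8313 genes were called, 281 and 309 of them also in all cells.

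The interferon gamma list was higher again, in 21 of 41 tested genes and lower in none, with a median of 1.02 (0.64 to 1.25) and 0.93 in Timp4 cells. In the type I list 4 of 37 genes were higher and 1 lower, with a median of 0.04 (-0.30 to 0.18). Leaving out mixed cells gave 21 of 41 higher and none lower for the first list and 3 of 36 higher and 1 lower for the second. Gbp2 measured 35.7 CPM in WT, 169.6 in BMT and 831 in aGVHD, an aGVHD to BMT difference of 4.90-fold (4.51 to 5.34), and Igtp 27.01 CPM in WT, 128 in BMT and 521 in aGVHD, a difference of 4.08-fold (3.70 to 4.51). Irf1, in contrast, was at a ratio of 1.005-fold (0.947 to 1.07), and Ifit1 was lower by 1.27-fold (1.13 to 1.42), under the boundary. Gbp2 and Igtp were thus called higher in both comparisons, and Irf1 and Ifit1 in the first. The difference between the 2 lists was not tested.

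The promoters of 5 interferon genes are printed to show which known interferon motifs lie in them. They are those of Gbp2, Igtp and Cd274, called higher in both comparisons, and of Irf1 and Ifit1, called between BMT and WT alone. All come from RefSeq (build GRCm38.p6), each as the 150 bases before a transcript start, 5′ to 3′ on the gene's strand. Capitals mark matches on either strand to an ISRE-type motif, 2 copies of GAAA with any 2 bases between them, bound by IRF and ISGF3 factors, or to a GAS-type motif, TTCNNNGAA, known from genes that answer interferon gamma. The stretches lie at chr3:142620513-142620662, plus strand (Gbp2), chr11:58199406-58199555, plus strand (Igtp), chr11:53769864-53770013, plus strand (Irf1, the first of 2 listed starts), chr19:34640739-34640888, plus strand (Ifit1) and chr19:29367288-29367437, plus strand (Cd274).
Gbp2: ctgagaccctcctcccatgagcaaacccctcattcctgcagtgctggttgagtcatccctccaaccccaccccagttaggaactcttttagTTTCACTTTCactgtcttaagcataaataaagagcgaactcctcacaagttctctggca
Igtp: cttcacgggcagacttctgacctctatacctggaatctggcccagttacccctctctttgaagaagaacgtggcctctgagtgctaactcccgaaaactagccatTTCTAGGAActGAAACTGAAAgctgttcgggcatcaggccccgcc
Irf1: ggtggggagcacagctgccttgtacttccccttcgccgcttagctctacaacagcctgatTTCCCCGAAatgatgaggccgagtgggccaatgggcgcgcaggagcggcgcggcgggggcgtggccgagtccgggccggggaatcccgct
Ifit1: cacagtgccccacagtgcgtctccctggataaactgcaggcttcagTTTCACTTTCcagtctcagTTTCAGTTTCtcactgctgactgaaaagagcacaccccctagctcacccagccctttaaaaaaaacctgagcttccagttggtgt
Cd274: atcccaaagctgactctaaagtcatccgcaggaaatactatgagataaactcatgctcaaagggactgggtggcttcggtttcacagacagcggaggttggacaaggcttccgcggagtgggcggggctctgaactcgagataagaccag
Gbp2 holds 1 ISRE-type match, Igtp 1 of each type, Irf1 1 GAS-type match, Ifit1 2 ISRE-type matches and Cd274 none in this window. Of the 43 genes of the interferon gamma list 29 were found in the promoter table, and 31.0% of these held an ISRE-type and 31.0% a GAS-type match in the 150 bases. Of 29 matched type I genes 34.5% and 10.3% did. Over the promoters of 27025 genes the shares were 1.85% and 4.77%. Among 27 matched p53 targets they were 0% and 3.7%. A match is a match of letters and says nothing about binding in these cells.

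Ido1 and Cd274, whose products restrain T cells, were higher in aGVHD. They were the 2 genes called of 10 tested in the costimulation and checkpoint list, which had a median of 0.06 (-0.37 to 2.37), and 2 of 10 were higher without mixed cells as well. Ido1, an enzyme that removes tryptophan, measured 0.965 CPM in WT, 7.59 in BMT and 102 in aGVHD, where WT rested on 1 UMI, and was higher in aGVHD by 13.5-fold (9.26 to 20.4). Its level in the empty droplets of aGVHD was 8.97 CPM. It was found in 0.474%, 3.57% and 26.2% of the cells of WT, BMT and aGVHD, in 0.474%, 1.30% and 10.9% after thinning to 1000 UMIs, and in none of 3220, 795 and 591 thinned stromal cells, which allows shares of up to 0.0932%, 0.377% and 0.508%. In aGVHD it lay mainly in Timp4 cells, with 120.2 CPM against 14.8 CPM in Plvap cells, a ratio of 8.15 (3.92 to 20.4). Cd274 measured 16.4 CPM in WT, 94.2 in BMT and 488 in aGVHD and was higher by 5.18-fold (4.63 to 5.81). It was found in 7.58%, 31.01% and 66.9% of cells, and in 2.84%, 9.42% and 37.4% after thinning, against 0.124%, 1.76% and 7.95% of thinned stromal cells. Cd274 too was higher in Timp4 cells, 4.61-fold in BMT and 3.48-fold in aGVHD.

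MHC class II was called higher in 6 of 7 tested genes and lower in 1, Ifi30, a lysosomal reductase. Cd74 was higher in aGVHD by 2.996-fold (2.81 to 3.20) over all cells and by 26.6-fold in Timp4 cells, and H2-Ab1 by 3.20-fold (2.88 to 3.56) and 11.6-fold. In Plvap cells the list's median was 1.25, and in Timp4 cells 3.54, with 6 of 7 higher. Without mixed cells the ratio of Cd74 in Timp4 cells was 30.3-fold (21.4 to 44.1), and the list had 6 of 7 higher and 1 lower over all cells. The empty droplets held 287 CPM of Cd74 in BMT and 350.5 in aGVHD, against 16.5 and 440.4 CPM in Timp4 cells. Ubd, a ubiquitin-like protein induced by interferon, measured 6.75 CPM in WT, 27.5 in BMT and 291 in aGVHD, with 7.80 CPM in WT, 158 in BMT and 1877 in aGVHD in Plvap cells and 8.09 CPM in WT, 1.24 in BMT and 91.6 in aGVHD in Timp4 cells. The WT values of Ubd rested on 7 UMIs in 3 cells, with 5 UMIs in Plvap cells and 2 in Timp4 cells. They are too few to set a WT level in either kind. For MHC class I, 6 of 23 genes were higher and 1 lower, with a median of 0.70 (0.48 to 0.96), and without mixed cells 8 of 23 higher and 1 lower. Psmb8, a subunit of the immunoproteasome, measured 158 CPM in WT, 520.2 in BMT and 1052 in aGVHD, and B2m differed by 1.45-fold (1.42 to 1.48).

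**Figure D4:**
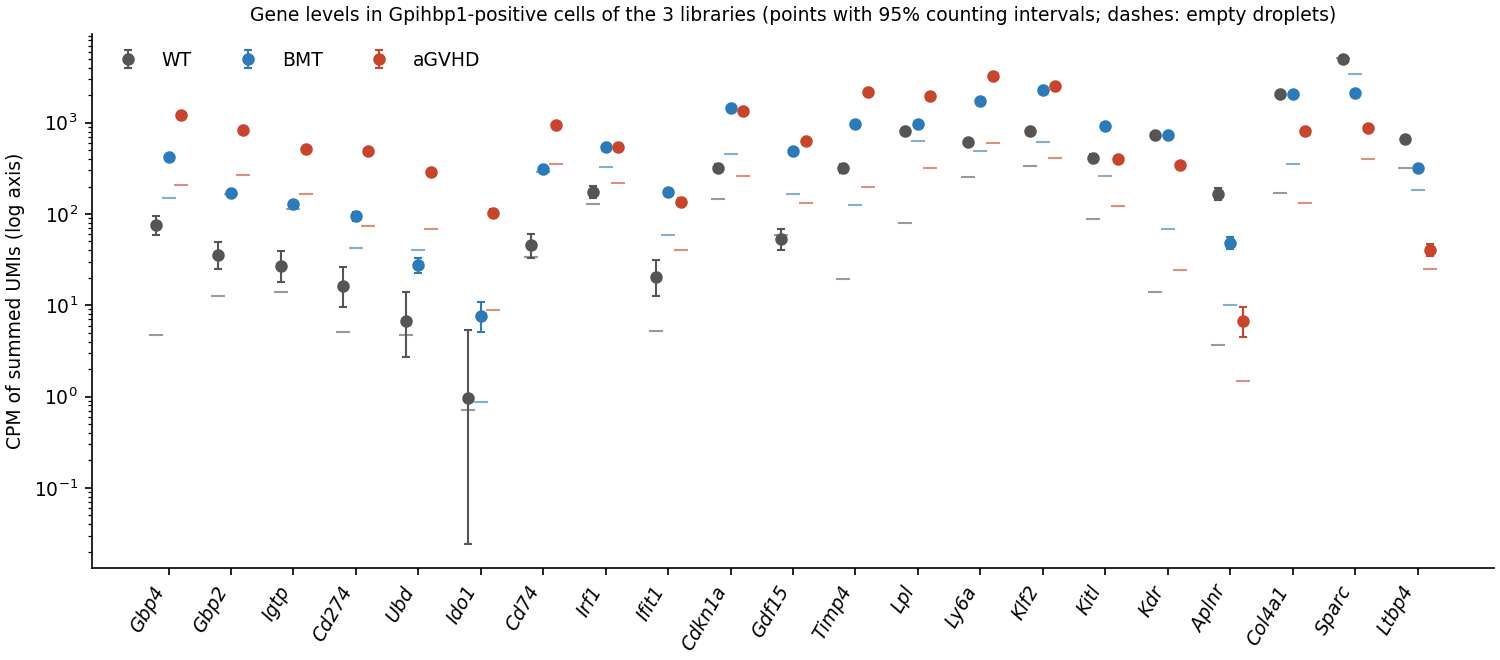
Levels of 21 genes (CPM, log axis) in the Gpihbp1-positive cells of the 3 libraries, with 95% counting intervals, and in the empty droplets of the same library (dashes). Gbp2, Igtp, Cd274 and Ido1 step up from WT to BMT to aGVHD, Cdkn1a and Irf1 step up once, and Aplnr and Ltbp4 step down at each library.

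Of 17 tested genes of the VEGF and angiopoietin list, which govern vessel growth, 6 were lower in aGVHD, 2 were higher and 9 were not called. The median was -0.64 (-1.07 to -0.07), and -0.51 in Timp4 cells, and without mixed cells the counts were 2 of 15 higher and 4 lower. Kdr, the main VEGF receptor, measured 726 CPM in WT, 742 in BMT and 345 in aGVHD and was lower by 2.15-fold (2.02 to 2.29). Esm1, a proteoglycan of sprouting tip cells, was lower by 6.24-fold (4.92 to 7.99), Vegfc, a lymphatic growth factor, by 3.91-fold (2.76 to 5.65), and Aplnr by 7.10-fold (4.78 to 10.9). The 2 genes higher were ligands: Pgf, by 4.74-fold (3.74 to 6.08), and Angpt2, which destabilises vessels, by 2.21-fold (1.79 to 2.75). In Timp4 cells Kdr, Esm1, Vegfc and Aplnr were lower as well and Pgf and Angpt2 higher, and with mixed cells left out of these the same calls stood except for Esm1, which was under the UMI minimum. Esm1 lay below the level of the empty droplets, 72.7 CPM in WT, 316 in BMT and 149.9 in aGVHD, in all 3 libraries.

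The basement membrane list was lower in 8 of 20 tested genes and higher in none, with a median of -0.72 (-1.18 to -0.46), and in 9 of 20 with a median of -0.92 in Timp4 cells. It had none of 20 higher and 7 lower without mixed cells. Col4a1 and Col4a2, the chains of the collagen network under the endothelium, measured 2070.3 CPM in WT, 2077 in BMT and 805 in aGVHD, and 1272 CPM in WT, 1285 in BMT and 583 in aGVHD. They were level in WT and BMT and lower in aGVHD by 2.58-fold (2.48 to 2.69) and 2.20-fold (2.10 to 2.31). Sparc, a collagen-binding protein, measured 4945 CPM in WT, 2107 in BMT and 885 in aGVHD, Igfbp7, a matrix protein of vessels, 4294 CPM in WT, 2977 in BMT and 1394 in aGVHD, and Col15a1 276 CPM in WT, 99.95 in BMT and 23.04 in aGVHD. The level of all 3 was lowest in aGVHD, and Sparc and Col15a1 were called lower in both comparisons. The empty droplets held 5110 CPM in WT, 3395 in BMT and 396 in aGVHD of Sparc, as much as or more than the cells of WT and BMT. Ltbp4, which anchors TGF-beta in the matrix, measured 655 CPM in WT, 315 in BMT and 40.3 in aGVHD and was lower in aGVHD by 7.83-fold (6.67 to 9.24), and by 12.5-fold in Timp4 cells.

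Niche factors were lower in 9 and higher in 4 of 27 tested genes, with a median of -0.17 (-1.18 to 0.14). Timp4 cells had 4 of 24 higher and 7 lower, with a median of 0.02. Without mixed cells the counts were level, with 5 of 22 higher and 5 lower, and in Timp4 cells 7 of 21 higher and 4 lower. Kitl was lower by 2.27-fold (2.14 to 2.40), and by 2.29-fold in Timp4 cells, and its CPM was level in aGVHD and WT. Cxcl12 was lower by 3.34-fold (3.20 to 3.50), with the limit on free RNA given above. In Timp4 cells without mixed cells Cxcl12 was called lower as well, by 2.55-fold (2.39 to 2.72), with 1334 CPM in BMT and 524 in aGVHD. Bmp2, a bone morphogenetic protein, was higher by 3.01-fold (2.38 to 3.83), and Edn1 lower by 2.15-fold (1.79 to 2.60). Arterial genes were lower in 8 of 25 and higher in 3, and without mixed cells 2 of 25 higher and 7 lower, among them Unc5b, a guidance receptor, lower by 2.80-fold (2.18 to 3.62), and Sema3g, a semaphorin, higher by 2.01-fold (1.74 to 2.34).

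Lipid and capillary genes differed less evenly. Of 24 tested capillary genes 2 were higher and 5 lower, with a median of -0.37 (-0.78 to 0.05), with the same counts without mixed cells and 1 of 22 higher and 5 lower in Timp4 cells. Timp4 and Car4 were the 2 higher, by 2.26-fold (2.18 to 2.35) and 2.42-fold (2.09 to 2.81), and Lpl was higher by 2.02-fold (1.94 to 2.10), at 1.95-fold in Timp4 cells. The list of fatty acid and lipoprotein genes had 2 of 24 genes higher and 2 lower, with a median of 0.05 (-0.62 to 0.29). Over all tested genes 4.13% were higher and 5.75% lower, so such small counts do not set a list apart. Pfkfb3, an activator of glycolysis, measured 30.9 CPM in WT, 70.4 in BMT and 269 in aGVHD, higher by 3.83-fold (3.35 to 4.39), in a glycolysis and hypoxia list with 4 of 24 genes higher and 2 lower. Fkbp5 and Sult1a1, targets of the glucocorticoid receptor, were higher by 2.88-fold (2.35 to 3.55) and 2.57-fold (2.35 to 2.80), and 5 of 19 tested genes of that list were higher and 1 lower. Without mixed cells the fatty acid list had 1 of 21 higher and none lower, the glycolysis list 4 of 23 higher and none lower and the glucocorticoid list 4 of 18 higher and none lower. None of 32 genes of oxidative phosphorylation was called in either comparison, and without mixed cells 1, Sdhc, was lower in BMT than in WT. Targets of p53 were called in 1 of 32 genes, Pmaip1, lower by 2.76-fold (1.69 to 4.65). Of 15 tested leukocyte adhesion genes Selp was called, higher by 3.47-fold (2.29 to 5.41) and found in 27 cells of aGVHD, and without mixed cells the list had 3 of 14 higher, Selp, Vcam1 and Cx3cl1, and none lower. Icam1, a ligand of leukocyte integrins, measured 65.6 CPM in WT, 92.1 in BMT and 146 in aGVHD.

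The genes of largest difference in aGVHD were again mostly markers of other cells. Among the 12 named as higher were the basophil or mast cell proteases Mcpt8 and Prss34, the platelet genes Pf4, Ppbp, Gp9 and Clec1b, the red cell gene Alas2, the mitotic gene Ube2c, the chemokine gene Ccl3, and Rgs18 and Plek, which blood cells use in signalling. Mcpt8 had no UMI in WT, 0.262 CPM in BMT and 89.8 CPM in aGVHD, against 42.9 CPM in WT, 70.6 in BMT and 549.7 in aGVHD in empty droplets. Ube2c measured 47.2 CPM in aGVHD against 231 CPM in its empty droplets, and lay in 43 of the 1010 cells. The cell cycle list, 12 of 24 genes higher over all cells, had 4 of 16 higher without cells that held UMIs of other types. In Timp4 cells it had 13 of 19 higher with mixed cells and 3 of 11 without them. The platelet and erythroid lists were called higher in 7 of 7 and 9 of 9 tested genes, and without mixed cells in 2 of 3 and 5 of 5. Among the 12 named as lower, the bone genes Bglap and Bglap2 stood at 2965 and 1322 CPM in the empty droplets of BMT and at 53.9 and 47.4 CPM in its cells. The others were Mmp3, Chrdl1, Fbln7, Fst, Scara3, Matn4, Pcsk6, Angptl1, Ltbp4 and Ces2e, a carboxylesterase that measured 27.01 CPM in WT, 17.01 in BMT and 0.698 in aGVHD and kept its call. Ranked after leaving out cells with UMIs of other types, Apol7c, at 1.05 CPM in BMT and 30.02 CPM in aGVHD, Ido1, and Serpina3g, a protease inhibitor at 23.3 and 210.1 CPM, were among the 12 genes with the largest ratio.

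Single cells showed how widely the response was shared. The interferon gamma list took up a median of 0.201% of a cell's UMIs in WT, 0.583% in BMT and 1.41% in aGVHD. In cells thinned to 1000 UMIs, 3.79% of WT cells (1.65 to 7.33), 42.0% of BMT cells (38.1 to 46.1) and 87.8% of aGVHD cells (85.6 to 89.8) lay above 0.6%, the 95th percentile of WT. Most aGVHD cells, though not all, thus lay above the level that few WT cells reached. For p53 targets the shares above the WT percentile were 5.21%, 33.1% and 32.6%. For the type I list they were 4.74%, 25.2% and 49.8%, and its most abundant member Ifitm3, which blocks virus entry, measured 2105 CPM in WT, 3652 in BMT and 5569 in aGVHD, higher in aGVHD by 1.52-fold (1.49 to 1.56) and under the boundary. The basement membrane list took up a median of 1.65%, 1.31% and 0.817%. Gbp4 had a UMI in 19.9%, 67.9% and 89.8% of cells, in 6.64%, 30.03% and 67.6% of thinned cells and in 0.155%, 12.1% and 24.4% of thinned stromal cells.

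**Figure D5:**
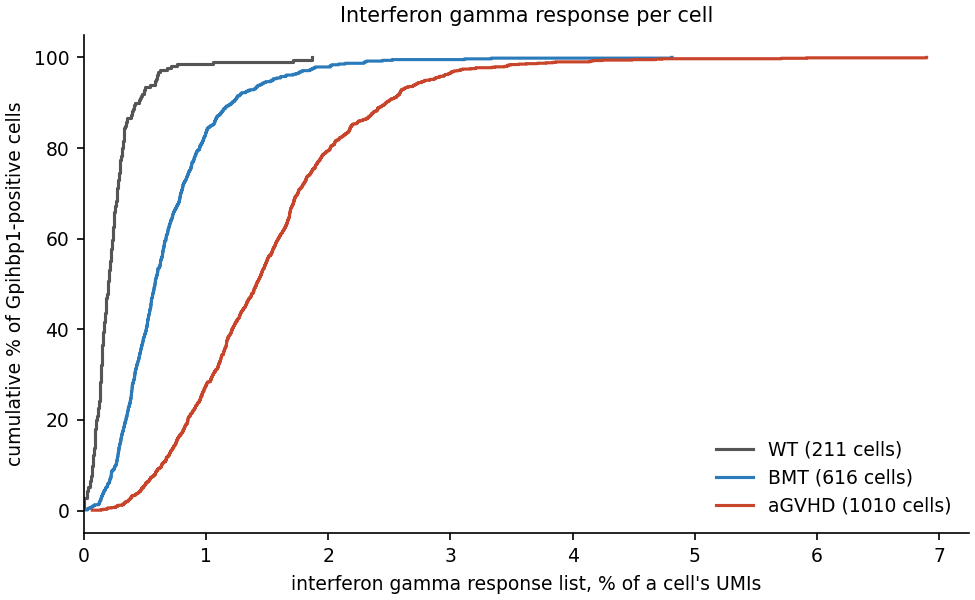
Cumulative percentage of Gpihbp1-positive cells against the percentage of a cell's UMIs in the interferon gamma response list, 1 line per library. The medians are 0.201% in WT, 0.583% in BMT and 1.41% in aGVHD, and the whole line lies further right in each.

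Across cells of 1 library, which share that library's depth range, the interferon gamma and type I lists went together weakly, with Pearson correlations of 0.27 in WT, 0.38 in BMT and 0.34 in aGVHD (211, 616 and 1010 cells, no gene in common). Interferon gamma and p53 lists had Pearson correlations of 0.03, -0.05 and 0.09, and rank correlations of 0.01, -0.003 and 0.13. In thinned cells the interferon gamma and p53 lists took up medians of 0.2% and 0.2% in WT, 0.6% and 0.5% in BMT and 1.4% and 0.5% in aGVHD. With so few UMIs per cell, counting noise draws each of these correlations towards 0. They therefore cannot show whether the interferon and p53 responses of a cell were related. Between kinds of cell, the interferon gamma list had a median of 0.571% in Timp4 cells and 0.811% in Plvap cells of BMT, and of 1.41% and 1.67% in aGVHD. Both kinds stood far above the 0.244% and 0.171% of WT.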

How the data were processed

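Sorted bone marrow niche cells were sequenced as 3 droplet libraries, 1 per group. The authors deposited raw UMI counts per gene and barcode, which were made with Cell Ranger 3.1.0 per the file headers, and the build mm10 and the tool Seurat stand in the submitters' processing notes. The deposited tables list all barcodes, so cells were called here by at least 1000 UMIs, 500 genes and under 10% mitochondrial UMIs, and barcodes with at most 100 UMIs served as empty droplets. The libraries held 86575425 (WT), 44219063 (BMT) and 67439098 (aGVHD) UMIs. Called cells shared 10 barcodes between WT and BMT, 8 between WT and aGVHD and 11 between BMT and aGVHD.

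UMIs were summed over the selected cells of a library and divided by their total. Ratios carry exact conditional 95% intervals and shares exact Clopper-Pearson intervals. A gene without a UMI in 1 library was set to 3 UMIs. The calling rule was tried on counts simulated with counting error alone. That simulation held no differences between cells or between libraries, so it cannot speak to calls that rest on few cells or on mixed cells. The genes named were the 12 called genes per direction with the interval bound farthest from a ratio of 1, the 12 highest beside cells without Gpihbp1 by their weakest library, and members of 42 lists. Ribosomal, mitochondrial, haemoglobin, immunoglobulin, sex-linked and unnamed genes were left out of that ranking. The cells, lists and rules were chosen with earlier results of these data known, and the division by Timp4 and Plvap and the removal of cells holding UMIs of other types after values were seen. Thinning drew 1000 UMIs per cell at random. Free RNA was estimated from haemoglobin and granule protein genes against the empty droplets, in the selected cells without mixed cells. Likely doublets were kept, and were removed in an alternative by the highest Scrublet scores (scanpy 1.11.5), 0.8% per 1000 called cells. Python 3.11.15, numpy 2.4.6, pandas 2.3.3, scipy 1.17.1 and matplotlib 3.10.9 were used. With 1 library a group, no replicate could be left out. Promoter sequences come from RefSeq, and none was read by coordinates from a genome.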

Additional observations from a re-analysis of the deposited data

Results flagged for a closer look

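Several genes differed between libraries in opposite directions in Gpihbp1-positive cells and in gated endothelial cells without Gpihbp1, each at least 2-fold, and the differences between the 2 kinds of cell were not tested. Between BMT and WT, Stmn1, a microtubule regulator of dividing cells, had a log2 ratio of -1.45 in Gpihbp1-positive cells and 1.75 in cells without Gpihbp1. Cxcl2, a neutrophil chemokine, had -1.37 and 2.59, and Acta2, smooth muscle actin, -1.44 and 2.67. Fn1, which encodes fibronectin, had 1.36 and -1.83, and Esm1 1.36 and -1.33. The fibroblast collagens Col1a1 and Col1a2 had -2.63 and -2.92 against 1.82 and 1.45, and the lymphatic gene Lyve1 -2.14 against 1.24. Between aGVHD and BMT, the mitotic genes Mki67 and Top2a had 3.07 and 1.72 in Gpihbp1-positive cells and -1.31 and -2.08 in cells without Gpihbp1. Plau, which encodes urokinase, had -1.09 and 1.71, the fat cell hormone gene Adipoq -3.19 and 2.83, and the protease gene Adamts5 -1.21 and 1.58. Without cells holding UMIs of other cell types, Stmn1, Cxcl2, Acta2 and Adamts5 kept the call in Gpihbp1-positive cells, and the other 9 did not.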

How the results depend on the processing

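Of 1480 values of single genes recomputed under other settings, 1220 moved by less than their counting interval and 257 by more, and 3 changed sign: Spp1 between BMT and WT had a log2 ratio of 0.068 with likely doublets removed, and Prg4 -1.05 without cells holding UMIs of other cell types and -2.19 in Timp4 cells without those cells. Of 916 list medians 860 stayed within their interval and 2 changed sign, both between BMT and WT in Timp4 cells without cells holding UMIs of other types: the capillary list had a median of -0.018 and the list of mesenchymal and contractile genes 0.68. In the same cells 270 genes were higher and 172 lower in BMT than WT, and 246 lower in aGVHD than BMT. The share of gated endothelial cells in WT, BMT and aGVHD was 48.9%, 82.5% and 92.7% at 1 or more Gpihbp1 UMIs, 33.97%, 70.7% and 78.9% at 3 or more, and 33.1%, 46.6% and 65.7% after thinning, and it was 80.3% in BMT at a mitochondrial limit of 5%. The ratio of BMT to WT was 1.69 at 1 or more Gpihbp1 UMIs, 2.14 at 2000 or more UMIs per cell and 1.41 after thinning, and that of aGVHD to BMT was 1.41 after thinning. At a 1.5-fold boundary, 953 genes were higher and 830 lower in BMT than WT, and 749 and 1289 in aGVHD than BMT. Where the higher side had to hold 2 times the level of the empty droplets these were 234 and 143, and 126 and 181. With 20 or more UMIs over both libraries 588 genes were lower in BMT and 819 in aGVHD. With 100 or more, 202 were lower in BMT, and 245 were higher and 345 lower in aGVHD. Without cells holding UMIs of other types 271 were lower in aGVHD. Timp4 cells made up 27.5%, 53.4% and 77.0% after thinning and 27.8% in WT at 2000 or more UMIs. Beyond what these settings themselves change, the cause was not tested. The settings without cells holding UMIs of other types, for Timp4 or Plvap cells alone, for Timp4 cells without cells holding UMIs of other types and for the thinned share of Timp4 cells were chosen after seeing the data. No paired analysis was possible because each group holds 1 library. WT, with 211 cells, limits what the first comparison can show for genes of low level.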
